A study of Mus musculus with 22 samples.

Results

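Of 177956 windows of 150 bases, each placed around the summit of an accessible site in splenic dendritic cells (DCs), 3544 (1.99%) were most open in T-bet+ cDC2s. They were chosen by their ATAC-seq counts: each window's count was scaled to CPM, its share of the library's reads in all windows brought to a common total, a window had to reach 3 CPM in both T-bet+ libraries, and the lower T-bet+ value had to be at least 1.5 times the highest value in the T-bet- cDC2 and cDC1 libraries. ATAC-seq measures where a transposase can insert into DNA, so a high count marks open chromatin, as found at active promoters and enhancers. Conventional DCs take up antigen and present it to T cells. The cDC1 subset, marked by XCR1, is known for cross-presentation to CD8 T cells, and cDC2s mainly prime CD4 T cells. T-bet, encoded by Tbx21, is a T-box transcription factor best known for directing type 1 programs in T cells and innate lymphocytes, and DNA-binding factors of this kind act through short motifs in open chromatin.

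The cells were sorted from Tbx21RFP-cre mice of 6 to 10 weeks of age, in which a red fluorescent protein and Cre are expressed with Tbx21. All groups carried this allele, and RFP+ cDC2s are called T-bet+ and RFP- cDC2s T-bet-. There was no mouse without the reporter and no Tbx21 deficiency among these samples, so the reporter marks the subset and the data do not test what T-bet does in it. ATAC-seq was made from pooled spleen, with 2 libraries for each of the 3 subsets. RNA-seq was made in separate libraries of the same subsets, 3 each from pooled spleen, and from pooled mesenteric lymph nodes (MLN) 3 of cDC1s and 2 each of T-bet+ and T-bet- cDC2s. The ATAC-seq windows held 7270164 to 10081555 reads per library, and the RNA libraries 20993220 to 29006549. How far the pools differed in animals is not given for ATAC-seq, so the spread between those libraries may be partly technical, and no p-value was computed on them. The study describes the RNA libraries as biological replicates, each of cells from 2 pooled mice. All p-values are from RNA and measure only the spread between those libraries. In pooled bulk cells, fewer cells of a type cannot be told apart from less signal per cell.

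In RNA the sort gave the difference it was made for. Tbx21 had 22.2, 23.9 and 16.6 CPM in splenic T-bet+ cDC2s, against 0.278, 1.49 and 2.28 in T-bet- cells and 0.854, 1.18 and 0.140 in cDC1s. The lowest T-bet+ library was above every other one (log2 fold change over T-bet- 3.94, SE 0.78, edgeR adjusted p = 0.019), though with the library class described below as a term the adjusted p of the edgeR fit was 0.053. The summed level of 10 cDC1 marker genes was 631 to 794 CPM in T-bet+ cDC2s and 8260 to 10269 in cDC1s, and that of 8 cDC2 markers 2078 to 2348 in T-bet+ cDC2s, 2468 to 3412 in T-bet- cells and 140 to 252 in cDC1s. Both cDC2 groups therefore carried the cDC2 markers and held little of the cDC1 markers. Splenic T-bet- libraries 1 and 2 and cDC1 library 3 stood apart, with expression, relative to the mean of the spleen libraries, that fell with GC content. GC content was taken from the most GC-rich short stretch of each gene's longest transcript. Spearman's rho across 7873 genes was -0.453, -0.301 and -0.297, against 0.181 to 0.318 in the other 6. Library class splits the libraries at a rho of 0.1. The main counts of called member and list genes are given beside those with this library class as a term in the edgeR fit where the term changes them. Background shares are without the term.

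The windows were relatively, not solely, open in T-bet+ cDC2s. No member was at 0 in every other library, and only 40 (1.13%) had every other library under 1 CPM. In 1441 members (40.7%) all 4 other libraries stayed under the 3 CPM that the T-bet+ libraries had to reach, so in most members another subset also reached that level. The median over members of the mean CPM was 7.91 in T-bet+ libraries, 2.92 in T-bet- libraries and 2.17 in cDC1s. The highest of the other libraries was a T-bet- cDC2 library in 2455 members (69.3%) and a cDC1 library in 1089 (30.7%). They are called T-bet+ windows below, with that meaning.

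Sequences are shown first for windows that hold a T-box motif, the letters TCACACCT on either strand, because T-bet is the factor that defines the sort. The 6 members with this motif and the highest lower T-bet+ CPM, leaving out windows over annotated untranslated regions, are given on the plus strand of GRCm38 (mm10), with the motif in capitals.
Proser2, intergenic chr2:6085995-6086144: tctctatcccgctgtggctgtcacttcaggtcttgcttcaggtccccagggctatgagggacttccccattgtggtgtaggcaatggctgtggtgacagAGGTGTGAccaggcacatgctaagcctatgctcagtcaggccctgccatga
Eif2ak3, intergenic chr6:70825092-70825241: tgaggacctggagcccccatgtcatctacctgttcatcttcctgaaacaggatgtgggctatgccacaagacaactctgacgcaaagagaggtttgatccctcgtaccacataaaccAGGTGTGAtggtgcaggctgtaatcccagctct
Cntnap2, intron chr6:47269565-47269714: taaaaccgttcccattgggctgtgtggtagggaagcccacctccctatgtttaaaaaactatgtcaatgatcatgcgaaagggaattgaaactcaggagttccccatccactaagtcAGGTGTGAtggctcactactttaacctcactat
Rasgrf1, intron chr9:90006613-90006762: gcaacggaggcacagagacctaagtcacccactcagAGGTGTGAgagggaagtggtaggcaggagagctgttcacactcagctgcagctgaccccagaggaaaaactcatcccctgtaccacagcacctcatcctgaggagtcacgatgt
Nsmaf, intergenic chr4:6476498-6476647: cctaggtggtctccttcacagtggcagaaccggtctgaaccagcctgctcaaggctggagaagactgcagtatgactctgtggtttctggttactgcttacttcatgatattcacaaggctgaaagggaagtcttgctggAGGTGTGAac
Fgr, promoter chr4:132976838-132976987: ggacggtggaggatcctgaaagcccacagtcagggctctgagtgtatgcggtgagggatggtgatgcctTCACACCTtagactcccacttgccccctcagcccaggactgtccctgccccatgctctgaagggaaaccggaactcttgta
Each window is named for the gene to which it was assigned, and only the Fgr window lay in a promoter, 203 bases from the closest annotated start. Fgr encodes a Src-family kinase of myeloid cells. The motif of the Eif2ak3 window lay in a masked repeat and those of the other 5 did not. In the Fgr window the libraries held 40.1 and 30.1 CPM in T-bet+ libraries, 12.2 and 13.6 in T-bet- libraries and 9.91 and 12.4 in cDC1s. The most selective of the 6 was the Rasgrf1 window, with 34.2 and 31.7 CPM in T-bet+ cDC2s against 3.95 and 5.09 in T-bet- cells and 3.51 and 3.85 in cDC1s. The Proser2 window was the least selective, with 33.9 and 34.9 CPM against 17.7 and 21.4 and then 14.4 and 13.8, so the level alone did not follow the ratio.

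A second set holds the motif of NF-kB, GGGANTTTC, a family of factors that DCs use in activation and maturation. These are the 4 members with this motif and the highest lower T-bet+ CPM whose gene is in the RNA table, leaving out windows over untranslated regions and 1 window on a chromosome not shown here, a set chosen after the values were seen, with the NF-kB letters in capitals.
Sema4d, intergenic chr13:51798488-51798637: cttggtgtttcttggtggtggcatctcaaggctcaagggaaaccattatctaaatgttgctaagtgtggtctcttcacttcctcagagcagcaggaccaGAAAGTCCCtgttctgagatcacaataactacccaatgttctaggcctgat
Ago2, intron chr15:73146888-73147037: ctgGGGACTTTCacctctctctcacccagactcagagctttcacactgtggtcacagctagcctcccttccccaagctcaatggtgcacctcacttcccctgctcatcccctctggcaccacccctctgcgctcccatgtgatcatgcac
Pglyrp1, promoter chr7:18884514-18884663: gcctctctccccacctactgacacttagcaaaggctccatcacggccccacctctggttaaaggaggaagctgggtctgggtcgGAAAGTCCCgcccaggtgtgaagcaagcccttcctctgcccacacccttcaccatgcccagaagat
Pik3r6, intron chr11:68545938-68546087: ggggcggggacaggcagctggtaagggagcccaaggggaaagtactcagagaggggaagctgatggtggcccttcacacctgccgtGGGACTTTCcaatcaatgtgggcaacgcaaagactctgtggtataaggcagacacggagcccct
The Pglyrp1 and Pik3r6 windows also hold the T-box letters, in lower case here, and are 2 of the 3 members with both. Pglyrp1 encodes a peptidoglycan recognition protein of innate defence, and Pik3r6 a regulatory subunit of the PI3K gamma complex. The Pglyrp1 promoter window, 91 bases from the start, had 28.6 and 32.7 CPM in T-bet+ libraries, 9.22 and 9.26 in T-bet- libraries and 10.9 and 10.5 in cDC1s. The Pik3r6 window had 40.8 and 26.9 CPM, then 6.95 and 7.63, then 4.39 and 6.88. In the Pglyrp1 window cDC1s lay slightly above T-bet- cells and in the Pik3r6 window below them, by far less than the distance of either to the T-bet+ libraries, which the rule fixes.

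The lower T-bet+ CPM of the members ran from 3.07 to 70.4, with a median of 7.18 and quartiles of 4.66 and 12.9. The ratio of that value to the highest other library, which the rule fixes at 1.5 or more, had a median of 1.86 and an upper quartile of 2.33, and it reached 11.7. A ratio of 2 or more was found in 1389 members (39.2%), 3 or more in 418 (11.8%) and 5 or more in 69 (1.95%). Most members, 2155, thus lay between the limit and a ratio of 2. Just inside it were windows of Inhbe, Mbp and Etv6, and just outside it windows of Cxcr5, Thap6 and Arid1b, all at a ratio that rounds to 1.5. At the level limit, windows of Slc9a7, Foxn2 and Gm38130 had a lower T-bet+ CPM of 3.07 and windows of Pgap1, Gdap1 and Rab33a 2.99.

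The 8 members with the highest ratio among those at 10 CPM or more were selected on that ratio, and their values are a description. First was a window in Dtx1, which encodes the E3 ubiquitin ligase Deltex1 of the Notch pathway. It had 35.1 and 25.8 CPM in T-bet+ libraries, 0.960 and 1.02 in T-bet- libraries and 1.25 and 2.2 in cDC1s. An intronic window of Il12rb2, which encodes a chain of the interleukin 12 receptor and is a T-bet target in T helper cells, had 13.7 and 12.7 CPM against 1.32 and 0.710 and then 1.00 and 0.140. It holds a Runx motif. A window 51561 bases from the start of Pcp4, which encodes a calmodulin-binding peptide, had 15.3 and 14.6 CPM, then 0.360 and 1.53, then 1.63 and 0.550. An intronic window of Dstn, which encodes the actin-depolymerizing protein destrin, held both a T-box and a Runx motif and had 10.2 and 13.3 CPM against 1.08 and 1.32 and then 0.380 and 0.960. A promoter window of Smad4, the common mediator of TGF-beta signals, had 25.3 CPM in both T-bet+ libraries against 2.2 to 3.36 in the others. The remaining 3 were assigned to 1700063H04Rik (ratio 10.6), Arhgef7 (7.43) and Man1a (7.36).

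**Figure D1:**
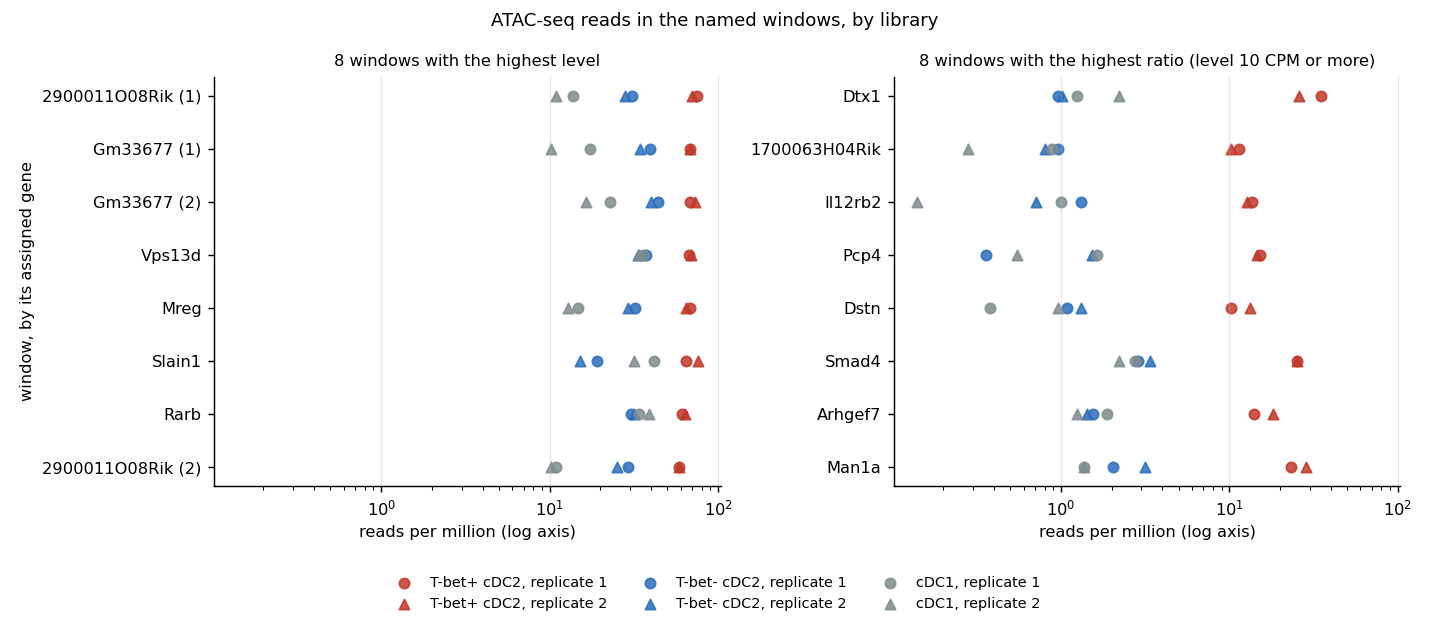
Each row is a window, named by its assigned gene, and each point is the CPM of 1 ATAC-seq library on a log axis (2 libraries per subset). In the 8 windows with the highest level (left) the other subsets also held reads, while in the 8 with the highest ratio (right) the T-bet+ libraries lay at 10.2 to 35.1 CPM and no other library was above 3.36.

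The 8 windows with the highest level showed the other side of the rule. The highest was an intronic window of 2900011O08Rik, with 75.5 and 70.4 CPM in T-bet+ cDC2s. It also had 30.8 and 28.1 CPM in T-bet- cells and 13.7 and 10.9 in cDC1s, more than most members reached in T-bet+ cDC2s. Windows of Gm33677, Vps13d, Mreg, Slain1 and Rarb followed with the same form, open in all 3 subsets and highest in T-bet+ cDC2s.

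Because both T-bet+ libraries were used to choose the members, repeatability was read by applying the rule to 1 numbered set of libraries and looking at the other. With replicate 1 of each subset alone 10194 windows met the rule, and 4303 of them (42.2%) met it again in replicate 2, where 4.51% of all windows did. With replicate 2 alone 8030 windows met it and 53.6% of them met it in replicate 1, against 5.73% of all windows. T-bet+ was the highest subset in replicate 2 for 79.5% of the windows chosen in replicate 1 (27.3% of all windows). The shares over all windows include windows under 3 CPM, which cannot meet the rule, and were not matched by level. The median ratio of those windows fell from 1.9 in the replicate that chose them to 1.42 in the other, and for the windows chosen in replicate 2 from 1.88 to 1.65. A window that met the rule again also had T-bet+ highest, so the share for direction could not be the smaller one. Ratios were lower in the libraries that had not chosen the windows, which a choice by ratio makes likely. Over the members the 2 T-bet+ libraries were within 1.5-fold of each other in 93.3%.

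The members fell in 3024 peaks. These peaks held 7067 windows, of which 50.2% were members, and in 160 of the 1898 member peaks with more than 1 window all windows were members. Counted over whole peaks, 1980 of the 3024 (65.5%) still met the rule. Overlapping members joined into 3374 separate regions. The difference was thus often carried by a stretch within a peak. Windows within 2000 bases of a start, called promoters, made up 19.1% of the members (678), against 30.1% of all windows, 21.7% of the windows that met the mirrored rule for T-bet- cDC2s (1964 windows) and 18.8% of those for cDC1s (14492). Introns held 44.0% of members and 34.2% of all windows, intergenic sequence 29.5% and 27.6%, and exons 4.63% and 3.67%. The median GC content was 49.3% in members and in all windows.

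The members were assigned to 2129 genes, and 99 members had no gene within 50000 bases. Of the genes, 1421 held 1 member, 708 held 2 or more and 74 held 5 or more. Plxnc1, which encodes the semaphorin receptor plexin C1, held the most, with 17 of its 52 windows in 10 peaks. Its highest member, in an exon, had 55.8 and 45.9 CPM in T-bet+ cDC2s against 15.8 and 16.2 in T-bet- cells and 14.8 and 19.8 in cDC1s. Tbc1d4, which encodes a Rab GTPase-activating protein of glucose transporter traffic, held 10 of 54, with an intronic window at 16.2 and 18.4 CPM against 3.95 and 4.17 and then 1.13 and 1.79. Chst3, which encodes a chondroitin sulfotransferase, held 10 of 38. Ffar2, the receptor for short-chain fatty acids, held 8 of 20, all intergenic, with lower T-bet+ CPM from 10.5 to 29.0. Foxp1, a forkhead factor, held 9 of 146, Lpp 8 of 115 and Fyb, an adaptor of integrin signalling, 8 of 56. The non-coding or predicted genes Gm12596, 1700063H04Rik and Gm20388 held 9, 8 and 8. Genes with many windows have more chances to hold a member, so the share is the better guide, and by it Gm12596 (9 of 17), 1700063H04Rik (8 of 19) and Ffar2 stood above Foxp1 and Lpp.

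At the Dtx1 locus 7 of 8 windows met the rule, spread over the gene body and 1 upstream window. A pair of their sequences is shown, the window with the highest ratio of all members, with its PU.1 motif (GAGGAAGT) in capitals, and the intronic window with an NF-kB motif. That NF-kB motif itself lay at least in part in a masked repeat.
Dtx1, highest ratio chr5:120697022-120697171: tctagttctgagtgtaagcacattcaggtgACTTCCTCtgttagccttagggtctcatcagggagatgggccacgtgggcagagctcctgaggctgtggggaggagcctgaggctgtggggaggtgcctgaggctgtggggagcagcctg
Dtx1, intron chr5:120688017-120688166: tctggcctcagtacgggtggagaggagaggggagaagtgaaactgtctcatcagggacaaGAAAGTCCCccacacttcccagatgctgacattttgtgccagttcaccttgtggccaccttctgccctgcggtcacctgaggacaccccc
The first lay 14831 bases into the gene from its outer start and 1694 bases from the start of another annotated Dtx1 transcript. PU.1, encoded by Spi1, is the main Ets factor of myeloid cells. In the second window the libraries had 12.2 and 17.4 CPM in T-bet+ libraries, 4.91 and 3.05 in T-bet- libraries and 3.26 and 4.81 in cDC1s. Around the first, members at 15391 and 17830 bases had 5.95 and 6.38, and 4.66 and 4.49 CPM in T-bet+ cDC2s, with no other library above 0.880. The 8th Dtx1 window, which missed the level limit in 1 library, had 3.57 and 1.89 CPM against 0.120 to 1.00. The neighbouring gene Rasal1, which encodes a Ras GTPase-activating protein, held 3 members of 9 windows, all at the end of that gene nearest Dtx1. Of these, a window had 9.13 and 6.98 CPM in T-bet+ cDC2s against 0.840 and 1.63 and then 1.13 and 1.10. None of the windows at the far end of Rasal1 met the rule, so the members formed a run from the near end of Rasal1 across Dtx1.

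**Figure D2:**
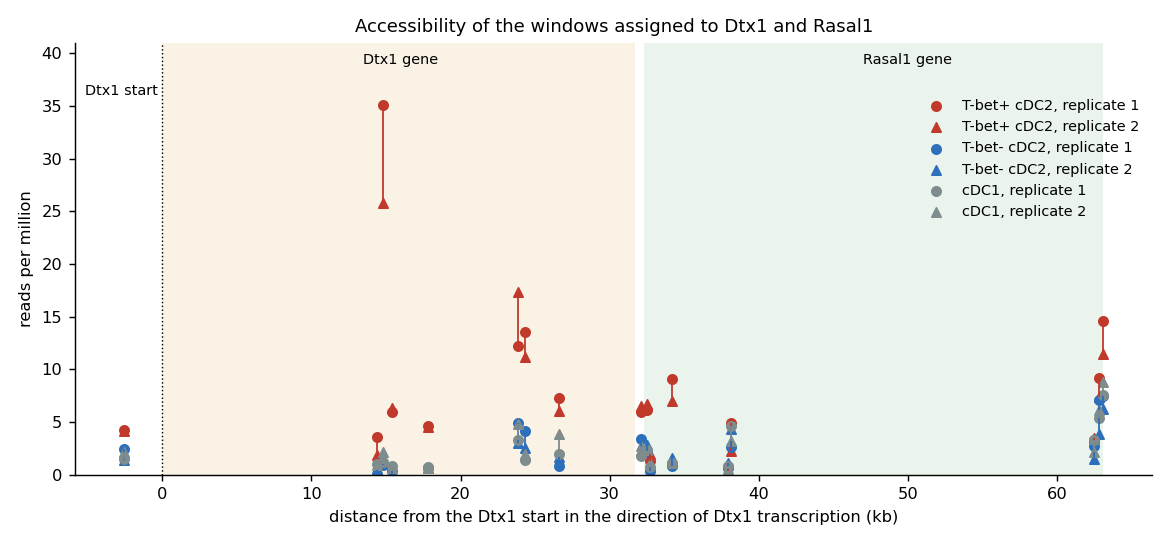
CPM of each ATAC-seq library in the windows assigned to Dtx1 and Rasal1, by distance from the outer Dtx1 start in the direction of Dtx1 transcription (kb), with lines joining the 2 replicates of a subset. The T-bet+ points rise to 35.1 and 25.8 in 1 window, where the other libraries lie between 0.960 and 2.2.

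Sequence was not used to choose the members, so motif content is a further property of them, described here as the share of windows with a motif on either strand and its 95% Wilson interval, which covers counting only. The T-box letters TCACACCT were in 80 members, 2.26% (1.82 to 2.80), against 0.714% of all windows, 0.204% of the T-bet- windows and 0.545% of the cDC1 windows. The looser form AGGTGTNA was in 4.60% of members and 1.92% of all windows. The E-box letters CAGGTG can overlap the T-box letters, and 22 of the 80 held both. CAGGTG itself was in 13.5% of members, 10.8% of all windows and 2.24% of the T-bet- windows. The strict T-box letters were thus several times more frequent in members than in the other sets and absent from nearly all members all the same.

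NF-kB and Runx motifs also stood above the other sets. GGGANTTTC was in 135 members, 3.81% (3.23 to 4.49), against 0.892% of all windows, 0.713% of T-bet- windows and 0.669% of cDC1 windows. Runx factors, which T cells and myeloid cells use beside T-bet and PU.1, bind TGTGGTT, which was in 447 members, 12.6% (11.6 to 13.8), against 5.23%, 7.84% and 5.18%. The letters AAAGGTCA of the Nr4a receptors were in 2.14% of members and 1.01% of all windows, with 1.83% in the T-bet- set. PU.1 letters were in 9.79% of members and 5.50% of all windows, close to the 9.75% of the cDC1 windows. Other motifs were more frequent in a neighbouring set. The AP-1 letters TGANTCA were in 12.6% of members, above the 7.90% of all windows and below the 24.8% of T-bet- windows. The C/EBP motif was in 5.36% of members and 5.84% of all windows, so it was the T-bet- windows that stood apart, with 18.3%. The Irf motif was in 1.44% of members, 2.39% of all windows and 5.93% of cDC1 windows. The Rbpj letters TGGGAAA, the site of the DNA-binding factor of the Notch pathway, were in 4.23% of members and 3.76% of all windows.

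**Figure D3:**
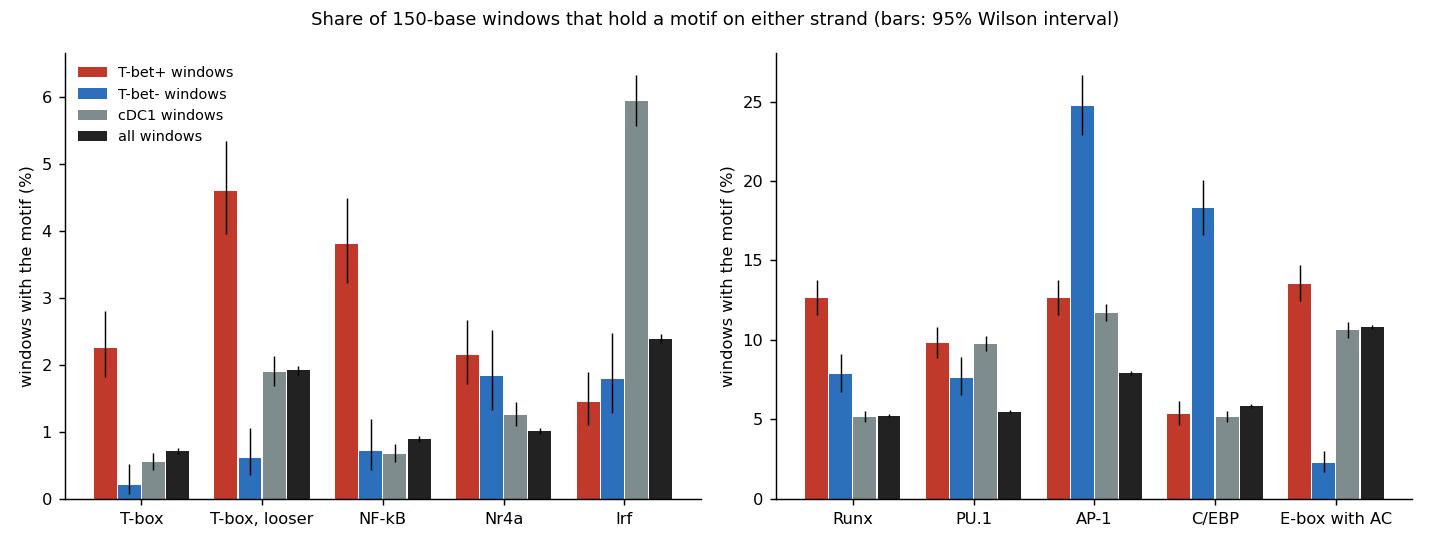
Share of windows (percent) that hold each motif on either strand in the T-bet+ windows, the T-bet- and cDC1 windows by the mirrored rule, and all windows, with 95% Wilson intervals. T-box and NF-kB bars are highest in the T-bet+ windows (2.26% and 3.81%), and AP-1 and C/EBP bars in the T-bet- windows (24.8% and 18.3%).

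The shares of these 3 motifs increased with the ratio. From members with a ratio of 1.5 to 2 (2155), through 2 to 3 (971), to 3 or more (418), the T-box share was 1.62%, 2.68% and 4.55%, that of NF-kB 3.30%, 3.91% and 6.22%, and that of Runx 11.7%, 12.9% and 16.8%. PU.1 went the other way, with 10.2%, 9.89% and 7.42%, and so did AP-1, with 13.3%, 12.4% and 10.1%. The T-box share was similar in the GC classes and outside repeats. In members under and over the median GC content of all windows the T-box share was 1.94% and 2.57% (all windows 0.662% and 0.766%), and counted outside masked repeats it was 1.92% against 0.568% of all windows. NF-kB had 3.39% against 0.734% outside repeats and Runx 10.7% against 4.13%. Promoter and distal members had T-box shares of 1.92% and 2.34%. In 1 window together, 3 members held T-box and NF-kB, 9 T-box and Runx and 10 NF-kB and Runx. The product of the shares of the paired motifs gives 3.05, 10.1 and 17.0 members. Any of the 3 motifs was in 640 members (18.1%, against 6.74% of all windows).

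The motifs were densest inside the windows. Within 75 bases of the centre, which is the window itself, there were 6.54 NF-kB motifs per 1000 members in each bin of 25 bases, then 1.65 at 75 to 250 bases and 1.38 at 250 to 500 bases, where all windows had 1.57, 1.15 and 1.06. T-box motifs had 4.04, 2.04 and 1.19 per 1000 members (all windows 1.25, 1.13 and 1.12), and Runx motifs 23.3, 8.57 and 7.66 (9.32, 6.58 and 6.56). The excess over all windows was thus largest inside the windows and ran on beyond their edges, for T-box most clearly. Within the window the T-box motif was not centred, with 0.762% of members holding it in the central 50 bases and 2.26% in the 150 bases. A motif match is a description of letters and does not show that a factor bound.

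**Figure D4:**
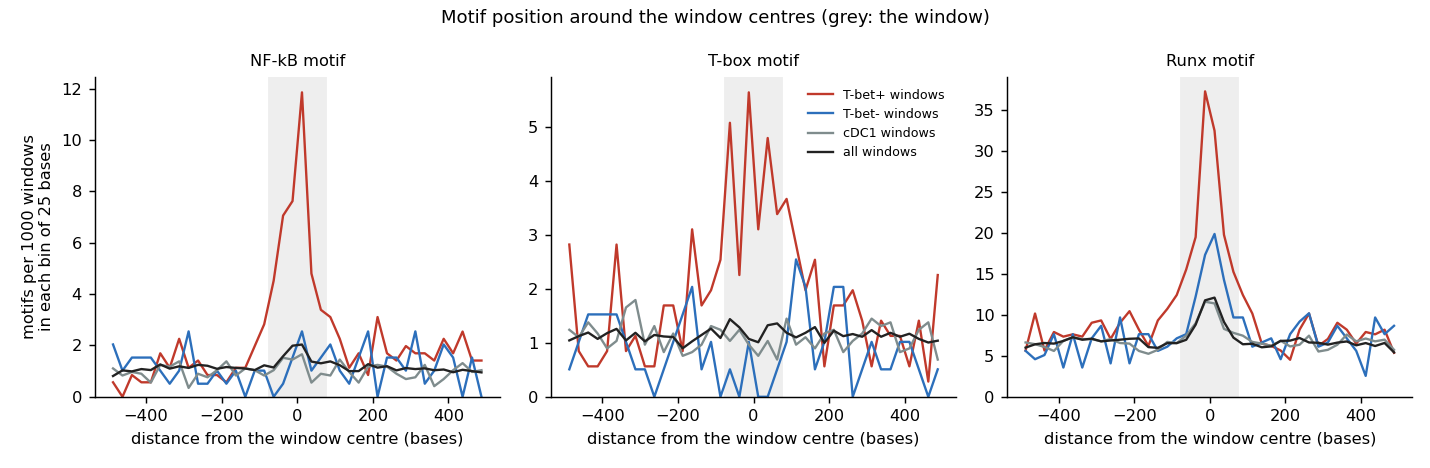
Motifs per 1000 windows in each bin of 25 bases, by distance from the window centre in bases, for NF-kB, T-box and Runx in the T-bet+ windows, the mirrored sets and all windows (grey band, the window). The T-bet+ line stands above the others inside the band (6.54 NF-kB motifs per bin), is still above them just outside it (2.82 and 3.10 in the first bins) and is near them from 250 bases on (1.38).

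RNA-seq gave a readout that the rule did not use. Of the 2129 genes, 1505 were in the RNA table, and 1281 passed the filter on low counts in spleen. Between splenic T-bet+ and T-bet- cDC2s, 67 of these member genes were higher in T-bet+ cDC2s (5.23%) and 44 lower, by edgeR at an adjusted p under 0.05 over all genes tested. Among all 14377 genes tested 1.95% were higher and 3.44% lower. The higher share of member genes was thus above the background and the lower share at it. The median log2 fold change was 0.24 over member genes and -0.01 over all genes. Against cDC1s, a comparison that shares the T-bet+ libraries, 315 member genes were higher (24.6%) and 101 lower (7.88%), where the background was 9.97% higher and 8.2% lower, and with library class as a term the counts were 370 and 130. Most member genes passed the test in neither direction between the cDC2 subsets. With library class as a term the member counts were 60 higher and 45 lower. Leaving out 1 T-bet- library gave 43 (without 1), 38 (without 2) or 112 (without 3) higher member genes, and leaving out 1 T-bet+ library gave 26 to 31.

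The share of higher genes grew with the number of member windows. Between the cDC2 subsets, genes with 1 member window had 30 higher and 37 lower of 837, genes with 2 had 15 and 6 of 245, genes with 3 or 4 had 15 and 1 of 140, and genes with 5 or more had 7 and 0 of 59. Genes with 5 or more windows of which none was a member had 98 higher and 282 lower of 5459. These were chosen to hold no member and were not matched in window number, so the part of window number was not tested. With library class as a term the counts from 1 member window to 5 or more were 31 higher and 37 lower, 11 and 5, 12 and 3, and 6 and 0. A member window in a promoter went with 30 higher and 8 lower of 335, and member windows outside promoters alone with 37 and 36 of 946. With library class as a term these were 30 and 7, and 30 and 38. Against cDC1s, genes with 5 or more member windows had 32 higher and 0 lower of 59, with a median log2 fold change of 1.10 (35 and 1 with library class as a term). Among genes whose member windows held a motif, 3 were higher and 3 lower of 41 for T-box between the cDC2 subsets, 5 and 5 of 78 for NF-kB and 6 and 9 of 233 for Runx, and with library class as a term 4 and 2, 3 and 6, and 8 and 9. Against cDC1s, where more genes passed in all, they were 15 and 4, 23 and 4, and 53 and 17. Between the cDC2 subsets 7.3% (T-box), 6.4% (NF-kB) and 2.6% (Runx) were higher, against 5.23% of member genes and 1.95% of all genes. The lower shares were 7.3%, 6.4% and 3.9%, against 3.4% of member genes and 3.44% of all genes. Against cDC1s 36.6%, 29.5% and 22.8% were higher, where member genes had 24.6% and all genes 9.97%. The lower shares there were 9.76%, 5.13% and 7.30%, where member genes had 7.88% and all genes 8.2%.

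**Figure D5:**
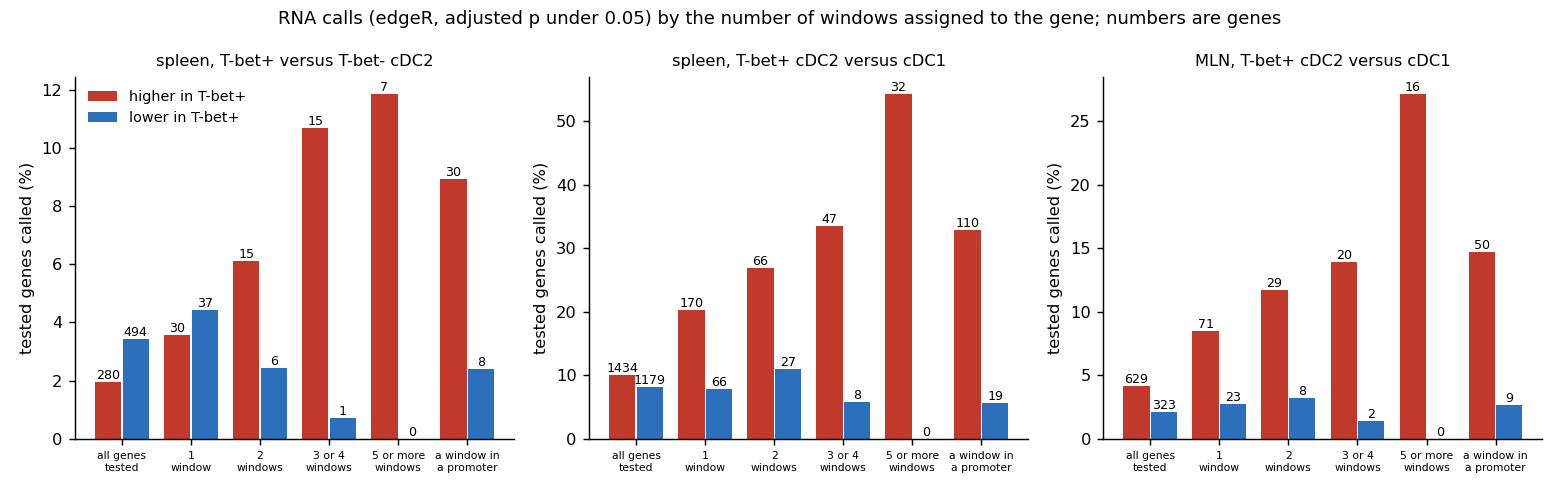
Percent of tested genes called higher (red) or lower (blue) in T-bet+ cDC2s by edgeR at an adjusted p under 0.05, for all genes and for genes by the number of member windows assigned to them or with 1 in a promoter, with gene numbers over the bars. In the spleen comparison of the cDC2 subsets (left) the red bars climb from 30 of 837 genes with 1 window to 7 of 59 with 5 or more, where no gene was lower.

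The member genes with the strongest rise between the splenic cDC2 subsets held both well expressed genes and genes near the detection limit. Dtx1 RNA had 291, 302 and 322 CPM in T-bet+ libraries, 5.92, 7.93 and 8.37 in T-bet- libraries and 0.194, 0.355 and 0.559 in cDC1s (log2 fold change over T-bet- 5.36, SE 0.33, edgeR adjusted p = 4.4e-05). Its accessibility and its RNA thus both set T-bet+ cDC2s apart from both other subsets. Ncald, which encodes the calcium sensor neurocalcin delta, had 32.6, 33.4 and 28.9 CPM against 1.16, 0.198 and 0.869 (5.39, SE 0.77, edgeR adjusted p = 0.0042). Ryr3, a ryanodine receptor calcium channel, had 32.7, 33.8 and 38.6 CPM against 1.43, 0.248 and 1.56 (5.00, SE 0.73, edgeR adjusted p = 0.0046). Rasal1 had 29.3, 15.6 and 25.7 CPM against 0.694, 0.446 and 1.59 (4.66, SE 0.55, edgeR adjusted p = 0.0015). These 4 genes were picked by the size of this change, and all 4 passed in each of 12 other fits.

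Cr2, the complement receptor CD21 of B cells and follicular dendritic cells, had 7.05, 4.26 and 8.37 CPM in T-bet+ cDC2s and 0 in the 3 T-bet- libraries, at least 52.0-fold higher at a limit of 3 counts per library (edgeR adjusted p = 0.0091). It held 2 member windows, both in its promoter, with 20.5 and 19.8 CPM and 11.3 and 9.57 CPM in T-bet+ cDC2s against at most 11.1 and at most 5.36 in the other libraries. Blk, a Src-family kinase of B cells, had 32.8, 28.7 and 25.8 CPM against 1.16, 2.58 and 1.74 (log2 fold change 4.0, SE 0.47, edgeR adjusted p = 0.0015). Both genes are B cell markers. Of the 6 B cell markers tested 3 were higher and 1 lower (median log2 fold change 2.61), and the lower one, Cd79b, had 19.6 to 30.6 CPM in T-bet+ cDC2s and 67.8 to 106 in T-bet- cells. Members that moved in opposite directions thus met in the summed level of all 10, which was 81.1 to 103 CPM in T-bet+ cDC2s and 93.3 to 124 in T-bet- cDC2s. The defining marker Cd79a was at most 1.60 CPM in T-bet+ cDC2s, and the part of B cells in these results was not tested. Tmem74, Hoxc4 and Pcp4 were also at least 25.7-fold, 22.9-fold and 4.64-fold higher over T-bet- cDC2s with at most 3 counts in each T-bet- library. Fasl, the ligand of the death receptor Fas, had 4.30, 3.32 and 5.17 CPM against 0.185, 0 and 0.254 (4.77, SE 1.01, edgeR adjusted p = 0.026), and held 3 member windows. Cr2 and Blk passed in 12 of 12 other fits, and Hoxc4, Tmem74, Fasl and Pcp4 in 11, 10, 5 and 4. With library class as a term Hoxc4, Fasl and Pcp4 no longer passed (edgeR adjusted p = 0.083, 0.060 and 0.19). Over the other fits their log2 fold changes ran from 5.26 to 9.06, 4.25 to 5.32 and 6.15 to 6.93. For Hoxc4 and Pcp4, with at most 3 counts in each T-bet- library, that size rests on the floor and only the lower limits above hold.

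Pglyrp1, whose promoter window is printed above and which held 4 members of 8 windows, rose from 41.5, 50.8 and 30.1 CPM to 153, 128 and 162 (log2 fold change 1.86, SE 0.36, edgeR adjusted p = 0.018). Egr3, an early growth response factor, rose from 14.3, 17.7 and 8.98 CPM to 68.5, 57.1 and 62.2 (2.2, SE 0.29, edgeR adjusted p = 0.0026), and its 1 member window holds a T-box motif. At the Tbx21 promoter itself 1 of 14 windows was a member, with 7.14 and 7.18 CPM in T-bet+ libraries, 2.04 and 3.36 in T-bet- libraries and 2.64 and 2.48 in cDC1s. The ratio at the Tbx21 promoter was 2.13. Egr3 passed in 13 of 13 other fits, Pglyrp1 in 8 of 13 and Tbx21 in 6 of 12.

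Other windows with a high ratio went with no RNA difference that passed the test between the cDC2 subsets. Il12rb2, with 3 members of 10 windows, had 21.6, 29.0 and 17.1 CPM of RNA in T-bet+ cDC2s and 27.3, 9.86 and 21.7 in T-bet- cDC2s (log2 fold change 0.20, SE 0.46, edgeR adjusted p = 0.85). Man1a, which encodes a Golgi mannosidase, had 341, 280 and 268 CPM against 61.5, 77.2 and 255 (1.18, SE 0.63, edgeR adjusted p = 0.36), T-bet- library 3 lying with the T-bet+ ones. Smad4 (0.75), Dstn (-0.33) and Arhgef7 (-0.24) did not pass either. Of the 7 genes with the most members that are in the RNA table, none passed between the cDC2 subsets. Tbc1d4 had a log2 fold change of 1.17 (edgeR adjusted p = 0.052), Ffar2 of 1.03 (0.056) and Plxnc1 of 0.56 (0.27), and Chst3, Foxp1, Lpp and Fyb were further from the threshold. Against cDC1s Plxnc1, Tbc1d4, Foxp1, Ffar2, Fyb and Chst3 passed, the first 5 by log2 fold changes of 1.43, 1.88, 1.36, 3.18 and 2.41. Chst3 was at 0 in all cDC1 libraries and at least 13.9-fold higher in T-bet+ cDC2s. These genes thus held windows above both other subsets and RNA that passed only against cDC1s, though the difference between the comparisons was not tested. None of the NF-kB subunit genes Nfkb1, Rel, Rela, Relb and Nfkb2 passed between the cDC2 subsets (Nfkb1, with 4 member windows, 0.36, edgeR adjusted p = 0.30).

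The 44 member genes that were lower in T-bet+ cDC2s, against the direction of their window, included genes of monocytes and macrophages. Cx3cr1, the fractalkine receptor of monocytes, had 8.04, 2.35 and 8.01 CPM in T-bet+ cells and 249, 154 and 249 in T-bet- cDC2s (log2 fold change -5.15, SE 0.51, edgeR adjusted p = 0.00063). Its 1 member of 25 windows had 5.65 and 3.79 CPM against 0.960 and 0.810 and then 1.38 and 2.34, and lay nearest to the start of Xirp1, a gene within the annotated span of Cx3cr1. Adgre4, an adhesion receptor of macrophages, had 16.7, 22.2 and 12.9 CPM against 732, 325 and 529 (-4.94, SE 0.40, edgeR adjusted p = 0.00024). Pilra, an inhibitory receptor of myeloid cells, and Padi2, a peptidylarginine deiminase, fell by 3.64 and 4.48 on the log2 scale (edgeR adjusted p = 0.00024 and 0.00059). Of the 10 lower genes with the largest change, only Plxdc2 held more than 1 member window, with 2. Cx3cr1, Adgre4, Pilra and Padi2 each passed in 13 of 13 other fits and Il1rap in 11 of 13. Plxdc2, Slc1a2, Mcoln2, Gad1-ps and Aldh1l1 passed in 11, 7, 6, 5 and 5 of 12. Mcoln2 had the largest change (log2 fold change -6.65, edgeR adjusted p = 0.033). Beside these genes, 7 of 10 monocyte and macrophage markers were lower in T-bet+ cDC2s (6 with library class as a term). Their summed level was 754 to 957 CPM against 9889 to 14662 in T-bet- cells and 945 to 1466 in cDC1s, and their part in the result was not tested.

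In MLN no gene passed between T-bet+ and T-bet- cDC2s by edgeR, among members or in all (0.0% higher and 0.0% lower of 15298, with 2 libraries a group). At an unadjusted p under 0.05, 105 member genes were higher and 71 lower of 1289, against 572 and 872 of all genes, and DESeq2 called 30 member genes higher and 24 lower of 1319 (2.27% and 1.82%), where it called 0.631% higher and 1.4% lower of 16160 genes. The member genes that rose in spleen were mostly higher in the separate MLN libraries, 58 of the 65 that could be tested, with a median log2 fold change of 1.33. Of the 44 that fell, 38 were lower, with a median of -1.20. These shares were not computed over all genes called in spleen, so neither is shown to be particular to member genes. Dtx1 had a log2 fold change of 3.16 (SE 0.68, edgeR adjusted p = 0.25) and Tbx21 of 2.76 (SE 0.64, edgeR adjusted p = 0.27). Against cDC1s in MLN, 136 member genes were higher (10.6%) and 33 lower (2.56%), with a background of 4.11% and 2.11%. Genes with 5 or more member windows had 16 higher and 0 lower of 59 (9 and 0 with library class as a term). The count of 136 was 61 without T-bet+ library 1, 78 without cDC1 library 2, 70 without cDC1 library 3 and 60 with library class as a term. In MLN the lower class held both T-bet+ libraries (rho -0.062 and -0.223), T-bet- library 1 (-0.316) and cDC1 library 1 (-0.029). ATAC-seq was made from spleen alone, so whether the windows were open in MLN was not measured.

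Gene lists of known pathways held members in few of their genes, and the share of their windows ran from none to several times that of all windows. Of 40 Notch pathway genes 3 held members, Dtx1 with 7, the DNA-binding factor Rbpj with 2 and its coactivator Maml2 with 2, which was 11 of 475 windows (2.32%, against 1.99% of all windows). Among the 37 tested, Dtx1 rose and Dtx4 fell between the splenic cDC2 subsets and Rbpj had a log2 fold change of -0.32 (edgeR adjusted p = 0.59). The median log2 fold change of the list was -0.32, against -0.01 over all genes. Notch signals are known to act on splenic cDC2s, and here the windows of the pathway were mainly those of Dtx1. Of 6 T-box and Runx factors 3 held members, Tbx21 with 1, Runx1 with 5 and Runx2 with 2, 8 of 141 windows (5.67%). Of the 5 tested only Tbx21 passed, the list median was 0.71 (-0.39 with library class as a term, where none passed by edgeR), and Runx1 had a log2 fold change of 0.11. Of 20 known T-bet targets of lymphocytes 5 held members, Il12rb2, Fasl, Il18r1, Cxcr3 and Txk, 10 of 131 windows (7.63%), and of 18 tested 4 were higher and none lower, with a median of -0.05. With library class as a term 1 was higher and 1 lower. Of those 5 genes only Fasl passed. Cxcr3 did not pass against T-bet- cDC2s (log2 fold change -0.13, edgeR adjusted p = 0.85) and was at 66.8 to 87.5 CPM in cDC1s.

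Of 6 Nr4a and Egr genes, which respond early to activation, Nr4a1 and Egr3 held 1 member each, and Egr3 and Nr4a2, the latter with no window in the table, rose (list median 1.13, 6 tested). Of 23 chemokine and positioning receptors 6 held members, 7 of 235 windows (2.98%), and 6 of the 19 tested were lower in T-bet+ cDC2s and none higher (median -1.10; 1 higher with library class as a term). Ccr6, the receptor for CCL20, had 44.4, 65.2 and 58.3 CPM against 17.2, 26.1 and 11.5 (log2 fold change 1.61, edgeR adjusted p = 0.077). Ccr6 thus did not pass. Of 24 cholesterol synthesis genes none held a member in 123 windows, and 1 was higher and none lower (median -0.34). With library class as a term none was higher. Of 21 cell cycle genes only Nusap1 held a member, 1 of 107 windows (0.935%, against 1.99% of all windows). In RNA 14 of the 21 were higher in T-bet+ cDC2s (12 with library class as a term) and none lower (median 1.86). Of 15 cDC lineage factors 3 held 1 member each, Irf4, Spi1 and Zbtb16, with 1 of the 15 lower and none higher (median 0.41). With library class as a term 1 was lower and 1 higher. Irf4 had 326, 416 and 237 CPM against 149, 89.6 and 96.3 (1.55, edgeR adjusted p = 0.052). The marker lists of cell types held 1 member (cDC1, cDC2, NK cell and plasmacytoid DC), 2 (monocyte and macrophage) or 4 (B cell and T cell) members, and the erythroid list held none. As a share of their windows this was 7.27% (T cell), 4.49% (B cell) and 4.17% (NK cell), against 1.99% of all windows. It was 1.72% for monocyte and macrophage, 1.33% for cDC2, 1.0% for plasmacytoid DC and 0.699% for cDC1 markers. The summed NK cell markers had 6.57 to 10.4 CPM in T-bet+ cDC2s against 63.9 to 130, nearly all of it Klrk1, an activating receptor also found outside NK cells, with 3.32 to 7.43 CPM against 60.3 to 126. The summed T cell markers had 30.2 to 37.8 CPM against 16.6 to 27.0. Most of that in T-bet+ cDC2s was Cd5, with 25.4 to 31.9 CPM against 7.93 to 14.7, while Cd6 had 0.520 to 3.31 against 4.56 to 11.8 and Cd3e was at most 0.440. None of the 5 T cell markers tested passed, and with library class as a term 1 was higher.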

How the data were processed

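Accessible chromatin (ATAC-seq) and RNA were measured in DC subsets sorted from Tbx21RFP-cre mice, and samples were grouped by their labels. The study's methods describe the RFP gates in reverse at 1 point, and the labels were followed. The authors deposited read counts per gene, per peak and per 150-base window around each summit, and a -log10 p-value per summit, deposited by the authors from peaks called on all libraries together, which was not used here as a measurement. A score column deposited with the peaks is constant and was not used. Per the labels and the study's methods, ATAC-seq reads were aligned to mm10 (GRCm38) with Bowtie2 2.2.5, filtered with SAMtools 1.9 and called with MACS2 2.1.1.20160309, and RNA reads were aligned with HISAT2 2.1.0, with R 3.4.0 for the rest. Uniquely aligned reads alone were kept, so repeats are undercounted. No transposase shift was applied to these counts here.

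Library totals of the windows gave CPM, with no correction for composition. Windows were assigned to the gene whose body overlapped or lay closest to their peak within 50000 bases, ties going to the nearest start, in an annotation of GRCm38, and 208 members had tied genes. Sequences and motifs were read from the GRCm38 genome with pysam 0.24.0, for 19 motifs on both strands. Gene counts were fitted with edgeR 4.0.16 (quasi-likelihood, TMM, filterByExpr) over all 3 subsets within spleen or MLN, with Benjamini-Hochberg adjustment over all genes tested and calls at 0.05. DESeq2 1.42.0, limma 3.58.1, R 4.3.3, Python 3.11.15, numpy 2.4.6, pandas 2.3.3, scipy 1.17.1 and matplotlib 3.10.9 were also used. Same-numbered splenic T-bet+ and cDC1 RNA libraries deviated together in all 3 pairs (correlations in the closing section), a hint from the data, since the labels name no shared source. The steps were tested on simulated data. Intervals are 95% Wilson intervals and cover counting error only.

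Members and gene lists were chosen with earlier results of these data known. Windows and genes are named by level, ratio, number of members, distance to the limits, membership in the lists, size of RNA change among genes past the threshold, and highest level among T-box windows. The NF-kB windows, the NF-kB subunits, St14, Nfkb1, Rasal1, Dnase1l3, Pglyrp1 and Pik3r6 were added after values were seen. Alternatives were other library scalings, limits, filters, gene assignments, tests, library class, the replicate block and leaving out each library. The alternative scalings, limits and single libraries moved the number of members as given in the closing section.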

Additional observations from a re-analysis of the deposited data

Results flagged for a closer look

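Among member genes, 2 differed between spleen and MLN in the change of T-bet+ cDC2s over cDC1s, by a test of the difference itself in an edgeR fit of all 16 RNA libraries that was added after the data were seen. Over all 16795 genes tested 15 passed, 2 of them among 1360 member genes. For Dtx1 the log2 fold change was larger in spleen by 4.28 (SE 0.73, edgeR adjusted p = 0.046). It was 9.69 in spleen and 5.46 in MLN when each tissue was fitted alone, and Dtx1 was higher in T-bet+ cDC2s in both. For St14, which encodes the membrane serine protease matriptase, the difference was 4.12 (SE 0.67, edgeR adjusted p = 0.044). The log2 fold change of St14 was 3.81 in spleen (edgeR adjusted p = 5.1e-05) and -0.27 in MLN (edgeR adjusted p = 0.81). In spleen St14 had 176, 150 and 159 CPM in T-bet+ cDC2s and 10.1 to 13.0 in cDC1s. The 1 window assigned to St14, in an intron, was a member, with 11.7 and 8.97 CPM in splenic T-bet+ cDC2s and at most 4.17 in the other libraries. Accessibility in MLN was not measured. For T-bet+ against T-bet- cDC2s, 1 of 16795 genes differed between the tissues and it was no member gene.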

How the results depend on the processing

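The number of members followed the limits. It was 1389 at a ratio of 2, 6422 at a ratio of 1.25, 7770 on subset means, 10194 and 8030 with replicate 1 or 2 alone and 2277 for whole peaks, and from 3902 to 6540 when 1 library was left out (5548 without T-bet+ library 1 and 6540 without T-bet+ library 2). Other library scalings gave 4747 (TMM) and 4712 (DESeq2 size factors). The count of higher member genes in spleen over T-bet- cDC2s was 123 by DESeq2, 139 with no filter on low counts, 30 for promoter members alone and 26 to 112 when 1 library was left out, where a group keeps 2 libraries and the spread is pooled over the subsets. Over cDC1s it was 110 for promoter members and 162 at a ratio of 2, and 225 to 261 when 1 library was left out. In MLN over T-bet- cDC2s it was 30 by DESeq2, 45 with no filter and 1 with only the compared subsets, and 0 to 0 when 1 library was left out. In MLN over cDC1s it was 220 by DESeq2, 250 with no filter, 60 with library class as a term, 50 for promoter members, 71 at a ratio of 2 and 61 to 145 when 1 library was left out. The T-box share was 3.24% at a ratio of 2, 4.60% with the looser letters and 0.762% in the central 50 bases, and the promoter share 16.8% at a ratio of 2 and 11.8% within 1000 bases. Apart from the shorter window and the smaller sets, the cause of these changes was not tested.

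In spleen the replicate numbers did not pair T-bet+ with T-bet- libraries, whose same-numbered deviations correlated at -0.118, -0.118 and -0.016. In MLN, with 2 libraries in each cDC2 group, both pairs give the same value by construction. It was -0.122 as numbered here and 0.122 with the T-bet- numbers crossed. The MLN T-bet- libraries carry other numbers in their sample titles than as replicates, so whether they pair could not be told. Same-numbered deviations of T-bet+ and cDC1 libraries correlated at 0.306, 0.181 and 0.152 in spleen and at 0.567 and 0.503 in MLN. With the replicate block the higher member genes numbered 29 and 249 in spleen (over T-bet- cDC2s and cDC1s) and 0 and 91 in MLN. Crossing the numbers of the T-bet- libraries in MLN, an alternative chosen after seeing the data, gave 0 and 96. Of the comparisons above, 57 alternative values stayed near the reported one (counts within 1.5 times, shares within the 95% Wilson interval) and 36 moved. Among single genes 253 kept their call, 68 lost it and none reversed.

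Limits: the members were chosen on all 6 ATAC-seq libraries, so no test of their accessibility was made, windows with few reads have wide counting error, near 31 reads at the level limit, gene assignment is by distance, and no sample tests T-bet or NF-kB itself.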

Other observations

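On chromosome X 41 of 4921 windows (0.833%) met the rule, against 1.37% to 2.51% on each autosome, with the most on chromosome 6. Chromosome Y had 28 windows and no member. The share of reads on X was 2.17% to 2.37% in every ATAC-seq library. The share of all reads that fell in members, which the rule fixes in direction, was 4.06% and 3.88% in T-bet+ libraries, 1.56% and 1.61% in T-bet- libraries and 1.2% in both cDC1 libraries. GC content moved with ATAC-seq reads in opposite directions at the 2 ends of the series, with Spearman's rho across windows of 0.145 and 0.0526 in T-bet+ libraries, 0.0489 and 0.0391 in T-bet- libraries and -0.0490 and -0.146 in cDC1 libraries, and its part in the choice of members was not tested. Of the genes higher in splenic T-bet+ than T-bet- cDC2s 23.9% held a member window, against 8.91% of the genes tested and 8.91% of the lower genes.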
